A study of Mus musculus with 144 samples.

Results

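The genes described here are 9 members of the Hippo pathway and its transcriptional output, *Yap1*, *Wwtr1*, *Tead1*, *Lats2*, *Amotl2*, *Ccn1*, *Ccn2*, *Ankrd1* and *Axl*, followed by name through every count table of the series. They are 9 of the 55359 genes counted in each library. The rule lists them by name and applies no measured value, but they were chosen with earlier results of these data known. RNA-Seq was performed on primary hepatocytes of male mice aged 28 days, cultured on type I collagen and treated with DMSO vehicle or with 10 nM TCDD, the most potent dioxin and an activator of the aryl hydrocarbon receptor (AhR). Cells were harvested after 2, 4, 8 and 12 h and then after 24, 48, 72, 96 and 120 h. With 2 genotype labels there were 36 groups of 4 libraries each. The genotype labels were wild-type (WT, strain C57BL/6NCrl) and Pkm ΔDRE, a mouse that lacks in all its cells an intronic dioxin response element (DRE) of *Pkm*, the pyruvate kinase gene. All groups shared the same medium, with 100 nM dexamethasone throughout and 5% serum only while the cells attached. The sources used here do not say which libraries came from the same animal, isolation or day, so the p-values measure the spread between libraries.

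The Hippo pathway is a kinase cascade that restrains growth. Its upstream kinases activate LATS1 and LATS2, which phosphorylate the coactivators YAP and TAZ and keep them in the cytoplasm. When the cascade is quiet, as on stiff substrates, in spread cells or at low cell density, YAP and TAZ enter the nucleus and bind TEAD factors, and the TEAD complexes switch on genes for matrix proteins, cytoskeletal regulators and the pathway's own inhibitors. Hepatocytes in the intact liver hold YAP activity low, and plating them on rigid collagen-coated plastic is a familiar way of raising it.

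*Yap1* encodes YAP and *Wwtr1* encodes TAZ. *Tead1* encodes the DNA-binding partner of both. *Lats2* encodes the kinase that inactivates them and is itself a YAP target, as is *Amotl2*, whose product holds YAP at cell junctions. *Ccn1* (CYR61) and *Ccn2* (CTGF) encode secreted matricellular proteins and *Ankrd1* encodes a muscle-type ankyrin repeat protein. These are the most widely used readouts of YAP and TEAD activity. *Axl* encodes a receptor tyrosine kinase that is also reported as a YAP target.

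The RefSeq promoter table (build GRCm38.p6) held windows for 7 of the 9 genes, with 9 windows in all, and none for *Ccn2* and *Tead1*. The letters of the TEAD binding core, GGAATG on either strand, lay in the 250 bases before the start of 6 of these 7 genes, against 12.6% of the 32851 windows of the same length in the table. *Lats2* had none in either of its windows. The DRE core, GCGTG on either strand, lay in windows of 3 of the 7 genes (*Wwtr1*, *Ccn1* and *Yap1*), against 28.2% of all windows. No TEAD match overlapped a DRE match in these windows. The 250 bases before the start are shown for *Ccn1* (minus strand, chr3:145649986-145650235), *Axl* (minus strand, chr7:25788734-25788983) and *Wwtr1* (minus strand, chr3:57575911-57576160), a secreted target, the receptor and a coactivator. The windows shown lie clear of annotated exons. The other window of *Wwtr1*, not shown, overlaps 34 bases of an exon of that gene and is the one that holds its DRE core. Capitals mark the TEAD core. A match describes the letters and is not a bound site.
*Ccn1*: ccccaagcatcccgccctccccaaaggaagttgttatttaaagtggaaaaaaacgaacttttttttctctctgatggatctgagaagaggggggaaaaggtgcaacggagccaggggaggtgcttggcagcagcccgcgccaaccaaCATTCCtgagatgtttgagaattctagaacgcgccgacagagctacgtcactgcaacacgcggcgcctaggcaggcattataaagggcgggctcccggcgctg
*Axl*: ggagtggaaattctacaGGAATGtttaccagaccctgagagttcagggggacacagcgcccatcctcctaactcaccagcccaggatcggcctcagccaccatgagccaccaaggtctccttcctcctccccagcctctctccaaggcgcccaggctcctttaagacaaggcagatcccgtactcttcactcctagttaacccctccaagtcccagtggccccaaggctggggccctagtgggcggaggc
*Wwtr1*: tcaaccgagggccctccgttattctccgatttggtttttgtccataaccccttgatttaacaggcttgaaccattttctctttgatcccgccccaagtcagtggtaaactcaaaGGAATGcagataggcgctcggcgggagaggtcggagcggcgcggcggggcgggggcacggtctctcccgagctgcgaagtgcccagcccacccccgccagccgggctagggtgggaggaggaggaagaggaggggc

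Not every library matched its labels. The hour labels were examined first. When each library was compared with the mean profile of every hour over 9564 genes, without the 9 genes themselves, 27 libraries lay nearest to the hour just before or after their own and 3 farther away, and the others lay nearest to their labelled hour. Replicate 4 of the vehicle 4 h group labelled Pkm ΔDRE correlated with its labelled hour at r = 0.651 and with 96 h at r = 0.968. Replicate 4 of the vehicle 96 h group with the same label did the reverse, with r = 0.642 for its labelled hour and 0.974 for 4 h. For all other libraries the correlation with the labelled hour was at least 0.883, and that of no other hour exceeded it by more than 0.0431. These 2 libraries, called discordant below, were kept in their labelled groups, and results that rest on them are given with and without them.

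**Figure D1:**
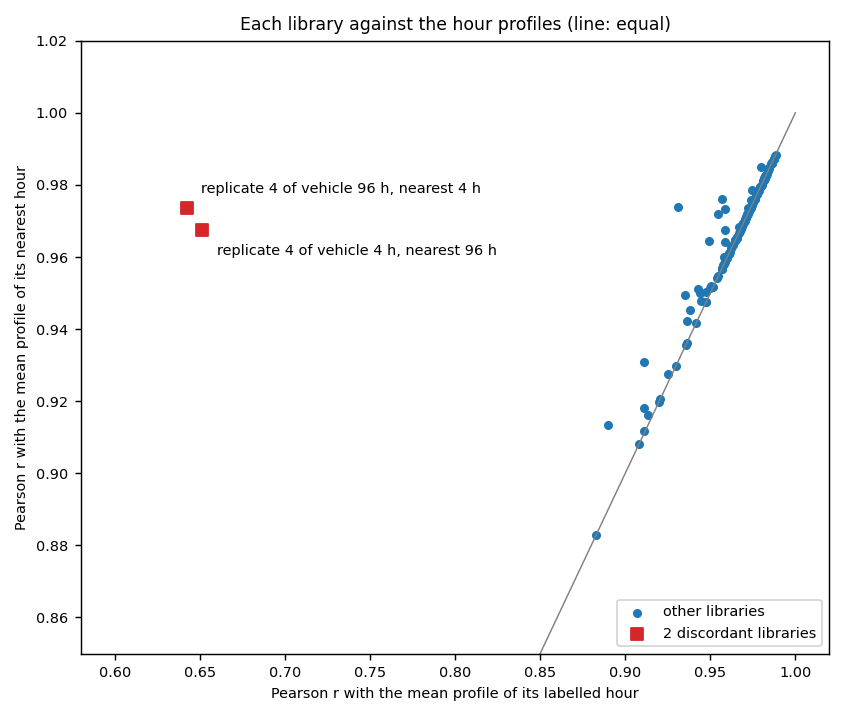
Pearson correlation of each library with the mean log2(CPM + 1) profile of its labelled hour (x axis) and of the hour it lay nearest to (y axis), the library itself left out of each mean. The discordant libraries of 4 and 96 h sit at 0.651 and 0.642 on the x axis, and all others at 0.883 or more.

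The treatment and genotype labels were examined next. *Cyp1a1*, the classical AhR target, went against the treatment label in 4 libraries labelled WT (vehicle 48 h replicate 1, vehicle 96 h replicate 3, TCDD 2 h replicate 4 and TCDD 72 h replicate 4), and fits without them gave the same calls among the 9 genes as the fits with them, 4 for TCDD and 12 for time in culture under the label WT, 2 between the labels in vehicle and 0 for the difference in response. *Pkm* went against the genotype labels. The deleted element is the one through which AhR raises *Pkm*, yet under the label of the deletion every TCDD library was above every vehicle library at 8, 12 and 48 h, and under the label WT the groups overlapped at these hours. At 12 h libraries labelled Pkm ΔDRE held 47.7 ± 7.3 CPM with vehicle and 157.4 ± 51.8 CPM with TCDD, and libraries labelled WT 41.4 ± 13.4 and 46.6 ± 28.9 CPM (SD, n = 4). Whether the genotype labels were exchanged was not tested, and the labels are used as names of the groups. Sequenced pairs assigned to genes ranged from 13588848 to 30719161 per library. Levels are CPM, counts scaled to a common library size by the trimmed mean of M values. A gene was called changed where it differed 1.5-fold or more and its adjusted p was under 0.05. Every adjusted p below comes from the quasi-likelihood test of edgeR, adjusted by Benjamini-Hochberg for the number of genes tested, unless DESeq2 or a permutation is named.

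Hepatocyte markers were high at the start and fell in culture. The summed level of 8 hepatocyte markers in vehicle libraries labelled WT was 124920 to 165080 CPM at 2 h and 3870 to 18884 CPM at 120 h, and all 8 were detected in every library. Over the same span, 10 stellate cell and fibroblast markers went from 19.1–26.9 to 31.6–248.5 CPM in sum, and 5 cholangiocyte markers, among them *Spp1*, from 55.8–140.8 to 580.6–1069 CPM. The 8 endothelial markers went from 296.7–483.3 to 37.3–94.04 CPM and the 8 macrophage markers from 154.4–249.5 to 17.8–64.5 CPM. Among the stellate markers, *Lum* was at 0 in the median library. The sums do not speak for each marker. In the mean over all libraries of the hour, *Spp1* went from 12.7 CPM at 2 h to 584.9 CPM at 120 h. *Krt19* went from 0.881 to 31.4, *Krt7* from 0.153 to 15.6, *Sox9* from 84.2 to 99.5 and *Epcam* from 3.10 to 1.32 CPM. Against their sums, *Kdr* (8.18 and 8.45 CPM), *Erg* (1.78 and 2.26) and *Ptprc* (0.572 and 0.674) did not fall, and *Dcn* (7.86 and 7.14) did not rise. In bulk RNA, fewer cells of a type and less RNA per cell cannot be told apart, and the part of other cell types in the levels below was not tested.

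Most of the targets spanned a wider range over time in culture than *Yap1* did. Per kilobase of exon, the mean vehicle levels under the label WT ranged across hours from 9.94 to 15.1 CPM for *Yap1*, 5.70 to 17.6 for *Wwtr1*, 2.18 to 11.3 for *Tead1* and 0.852 to 4.23 for *Lats2*. On the same scale *Ccn1* ranged from 63.1 to 210.9 CPM and *Ccn2* from 28.6 to 267.6 CPM, so that the lowest hourly mean of each was above the highest of *Yap1*. *Amotl2* ranged from 9.81 to 55.9, *Ankrd1* from 0.0504 to 16.7 and *Axl* from 0.835 to 4.72 CPM per kilobase. By the median over hours the order was *Ccn2* (187.4), *Ccn1* (149.9), *Amotl2* (19.3), *Yap1* (13.2), *Wwtr1* (10.2), *Ankrd1* (4.66), *Tead1* (4.65), *Lats2* (2.12) and *Axl* (1.70). The ranges of every pair of neighbours in this order overlapped except those of *Ccn1* and *Amotl2*. Counting ignored strand, and no gene annotated over a member exceeded 1.83 CPM in any library where it was counted.

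**Figure D2:**
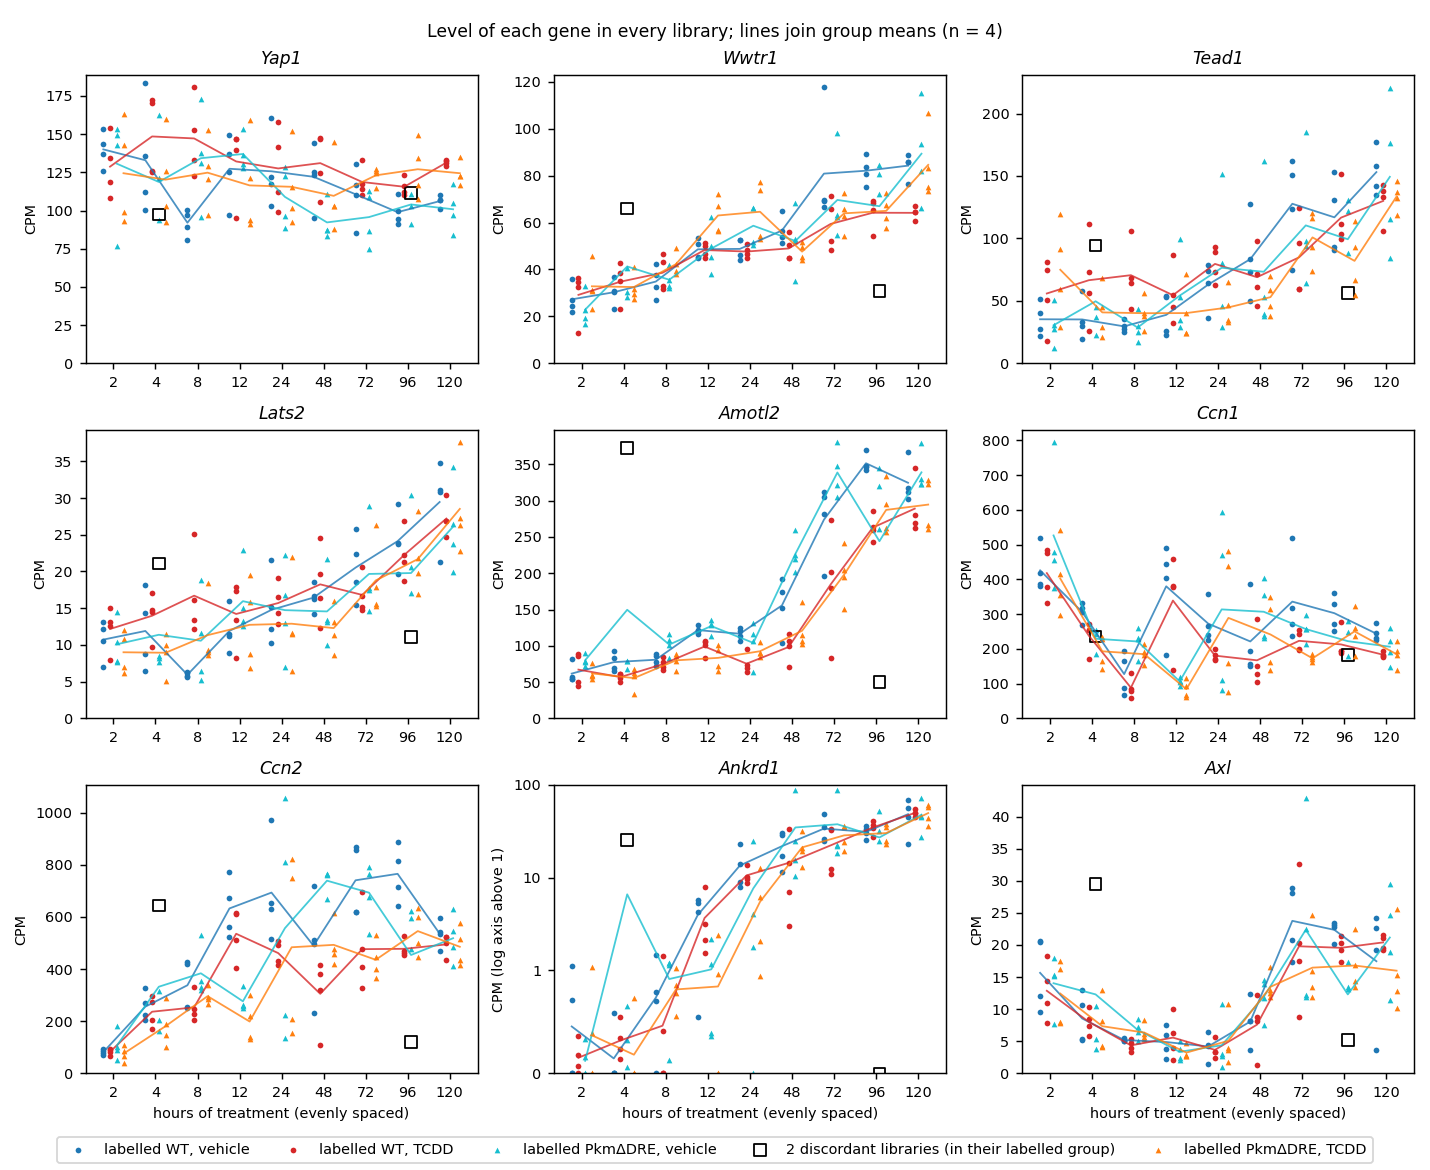
CPM of each gene in each library (y axis, linear except for *Ankrd1*, whose axis is logarithmic above 1) by hour of treatment (x axis, evenly spaced), with lines joining the means of 4 libraries. Open squares mark the 2 discordant libraries. *Amotl2* in the one labelled 4 h was 372.4 CPM, against 68.3 to 79.2 CPM in the other 3 libraries of its group.

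*Yap1* had the smallest ratio of highest to lowest hourly mean among the members in vehicle, under either label. In vehicle libraries labelled WT it was 137.1, 125.6, 153.5 and 143.8 CPM at 2 h, 89.5, 80.9, 97.3 and 100.3 CPM at 8 h, and 106.6, 109.9, 106.8 and 101.2 CPM at 120 h. The highest of its 9 hourly means was 1.52 times the lowest under this label and 1.49 times under the label Pkm ΔDRE. The 8 h libraries labelled WT were all below the 2 h libraries, and at 120 h all lay in between. *Yap1* fell between 2 and 8 h under the label WT (log2 fold change -0.60, SE 0.15, adjusted p = 0.00275) and changed by 0.02 (SE 0.22, adjusted p = 0.984) under the label Pkm ΔDRE.

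*Wwtr1* and *Tead1* were higher at the end than at the start. *Wwtr1* was 21.7, 24.6, 26.97 and 35.8 CPM at 2 h and 86.05, 88.7, 76.4 and 85.97 CPM at 120 h under the label WT in vehicle, so that the highest early library lay below the lowest late one. *Tead1* was 27.6, 21.6, 51.8 and 39.97 CPM at 2 h and 177.0, 134.8, 142.3 and 158.3 CPM at 120 h, again without overlap. Among libraries labelled Pkm ΔDRE, mean levels at 2 and 120 h were 22.9 ± 7.20 and 89.4 ± 20.7 CPM for *Wwtr1* and 30.4 ± 15.7 and 149.3 ± 61.1 CPM for *Tead1* (SD, n = 4). *Tead1* varied widely between libraries of 1 group, from 38.002 to 162.1 CPM in vehicle libraries labelled Pkm ΔDRE at 48 h. Within groups *Tead1* rose with the share of uniquely mapped pairs on no gene, as described below. In vehicle this share was 4.6–5.5% at 2 h and 8.6–10.7% at 120 h under the label WT. Under the label Pkm ΔDRE it was 4.0–5.3 and 7.8–11.8%. The 2 hours did not overlap under either label, and the part of the share in the rise was not tested.

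Under the label WT, the 2 inhibitors that are also YAP targets differed in timing. *Lats2*, the kinase, was 10.6, 12.2, 13.1 and 7.06 CPM at 2 h under the label WT in vehicle, dipped to 5.79, 6.25, 6.14 and 5.57 CPM at 8 h and reached 30.8, 31.1, 34.7 and 21.3 CPM at 120 h. The 8 h libraries were below all others of 2 and 120 h. Under the label Pkm ΔDRE no such dip was seen, and *Lats2* changed by 0.04 between 2 and 8 h on the log2 scale (adjusted p = 0.974). *Amotl2*, the junctional protein, had no dip. It was 54.5, 56.4, 81.4 and 54.5 CPM at 2 h, 120.1, 124.97, 114.04 and 107.3 CPM at 24 h and 369.6, 348.5, 341.9 and 346.4 CPM at 96 h. Of the 16 vehicle libraries of 96 and 120 h under both labels, 14 stood between 302.8 and 379.4 CPM, 1 labelled Pkm ΔDRE at 261.5 CPM and the discordant library of 96 h at 49.8 CPM.

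The secreted targets, *Ccn1* and *Ccn2*, parted in the first hours. *Ccn1* was highest at the first harvest, with 387.2, 418.3, 518.3 and 379.4 CPM at 2 h under the label WT in vehicle, and 66.3, 86.4, 164.1 and 192.5 CPM at 8 h. *Ccn2* was lowest at the first harvest, with 70.2, 93.9, 77.9 and 85.3 CPM at 2 h and 252.2, 254.2, 418.8 and 427.6 CPM at 8 h. In both genes the hours did not overlap, and the directions were opposite. Between 2 and 8 h *Ccn1* fell by 1.74 on the log2 scale (SE 0.30, adjusted p = 3.16e-05) and *Ccn2* rose by 2.05 (SE 0.24, adjusted p = 6.38e-08). The same pair changed under the label Pkm ΔDRE, *Ccn1* by -1.28 (SE 0.39, adjusted p = 0.03) and *Ccn2* by 1.84 (SE 0.49, adjusted p = 0.0119).

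*Ankrd1* came from almost nothing. In vehicle libraries labelled WT it was 0, 0, 0.712 and 1.11 CPM at 2 h, 13.9, 8.98, 23 and 7.92 CPM at 24 h and 68.95, 22.8, 55.6 and 45.2 CPM at 120 h. Its rise from 8 to 24 h was the steepest step of any of the 9 genes under this label (log2 fold change 4.02, SE 0.70, adjusted p = 4.76e-05). The 24 h libraries labelled Pkm ΔDRE were 0, 1.77, 24.7 and 4.06 CPM, and the 48 h libraries 24.6, 88.1, 15.5 and 10.3 CPM, and the ranges of the 2 hours overlapped.

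*Axl*, the receptor, fell before it rose. It was 20.4, 20.6, 9.61 and 12.1 CPM at 2 h under the label WT in vehicle, 1.54, 4.27, 4.50 and 6.496 CPM at 24 h and 20.7, 28.9, 17.3 and 28.0 CPM at 72 h. The 24 h libraries lay below those of both other hours, which overlapped. With the label Pkm ΔDRE the lowest mean was at 12 h (3.37 ± 1.31 CPM, SD, n = 4) and the highest at 72 h (22.4 ± 14.5 CPM).

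Counted over steps of the time course, 5 of the 9 genes changed between 2 and 8 h under the label WT, where 31.9% of all genes tested were called: *Ccn2* rose, and *Ccn1*, *Axl* (log2 fold change -1.60, SE 0.45, adjusted p = 0.00549), *Lats2* (-0.84, SE 0.26, adjusted p = 0.01) and *Yap1* fell. Between 8 and 24 h, where 29.1% were called, 5 rose, namely *Ankrd1*, *Lats2* (1.18, SE 0.25, adjusted p = 0.000533), *Ccn1* (0.97, SE 0.30, adjusted p = 0.0116), *Tead1* (0.96, SE 0.32, adjusted p = 0.0191) and *Ccn2* (0.91, SE 0.24, adjusted p = 0.00319). The median log2 fold change of the 9 genes in that step was 0.91, against 0.12 over all genes. From 24 to 48 h neither edgeR nor DESeq2 called any (8.06% of all genes), and 3 of the 9 had an unadjusted p under 0.05 (*Amotl2*, *Axl* and *Ccn2*). From 48 to 120 h *Amotl2* (1.05, SE 0.16, adjusted p = 3.57e-05) and *Lats2* (0.82, SE 0.25, adjusted p = 0.0185) rose, where 15.4% of all genes were called. *Lats2* lost this call with the share of uniquely mapped pairs on no gene as a covariate (0.65, adjusted p = 0.0702). *Wwtr1* passed the adjusted p there but not the fold (0.56, SE 0.16, adjusted p = 0.0143), and was called with RLE scaling and by DESeq2 (0.60 in both, adjusted p = 0.0101 and 0.00325).

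Under the label Pkm ΔDRE, 2 of the 9 genes changed between 2 and 8 h (11% of all genes called) and none between 8 and 24 h (3.33%), 24 and 48 h (1.9%) or 48 and 120 h (13.9%), where 3, 2 and 1 had an unadjusted p under 0.05 and DESeq2 called *Wwtr1* in the last step (0.80, adjusted p = 0.0341). This count depended on the 2 discordant libraries. Without the discordant libraries, which are in none of these steps but share the estimate of the spread, 6 changes were called: *Ccn1* and *Ccn2* as before, *Wwtr1* between 2 and 8 h (0.64, SE 0.22, adjusted p = 0.0442) and 48 and 120 h (0.74, SE 0.22, adjusted p = 0.0171), *Ankrd1* between 8 and 24 h (2.91, SE 0.97, adjusted p = 0.046) and *Amotl2* between 24 and 48 h (1.11, SE 0.20, adjusted p = 0.000304). The log2 fold change of *Amotl2* was 1.10 with the 2 libraries, but its SE was 0.40 and its adjusted p 0.145. The share of all genes called without the discordant libraries was not taken, so these 6 calls have no background beside them. This alternative was added after the data had been seen. A difference between the labels in these time courses was not tested.

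**Figure D3:**
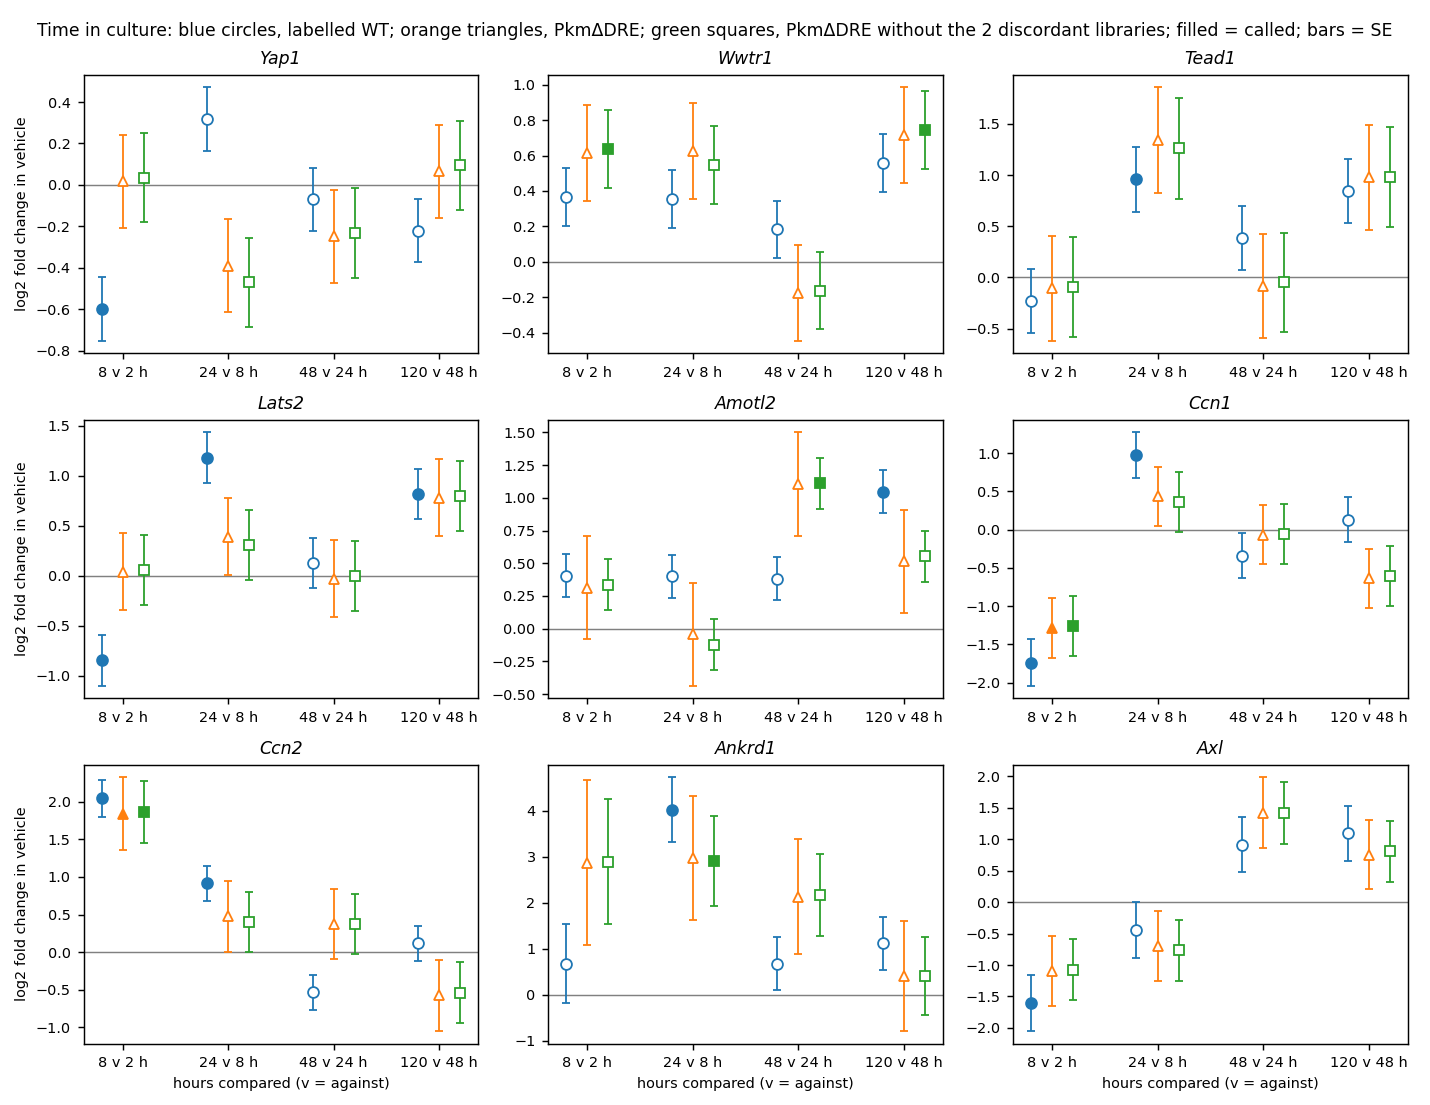
Log2 fold change with SE (y axis) of each gene between pairs of hours in vehicle libraries (x axis) for the label WT (circles), the label Pkm ΔDRE (triangles) and the latter without the discordant libraries (squares), filled where called. For *Amotl2* from 24 to 48 h, the SE falls from 0.40 to 0.20 without these libraries while the estimate goes from 1.10 to 1.11.

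Leaving out 1 library at a time kept *Ccn1*, *Axl*, *Ccn2* and *Lats2* between 2 and 8 h, *Lats2* and *Ankrd1* between 8 and 24 h and *Amotl2* between 48 and 120 h in all 36 fits under the label WT. *Yap1* (2 to 8 h) was kept in 33 of 36 fits, *Ccn1* and *Tead1* (8 to 24 h) in 33, *Ccn2* (8 to 24 h) in 35 and *Lats2* (48 to 120 h) in 32. The adjusted p of *Ccn1* between 8 and 24 h reached 0.0791 without the vehicle 24 h replicate 4, and that of *Lats2* between 48 and 120 h reached 0.0601 without the vehicle 48 h replicate 2. Under the label Pkm ΔDRE, *Ccn1* was kept in 30 of 36 fits, with an adjusted p of up to 0.156 without the vehicle 2 h replicate 3, and *Ccn2* in 35.

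Of 21 other Hippo pathway genes, 10 rose and 1 fell between 8 and 24 h under the label WT, and none was called under the label Pkm ΔDRE, where 19 of 21 estimates were positive. Over the 4 steps together, 17 increases and 5 decreases were called in 84 tests under the label WT, and 4 and 1 under the label Pkm ΔDRE, beside shares over all genes of 31.9, 29.1, 8.06 and 15.4% and of 11, 3.33, 1.9 and 13.9% in the same steps. Of 15 other genes of a published YAP signature, 8 rose among 14 tested between 8 and 24 h with the label WT, and 2 among 15 with the label Pkm ΔDRE. Both of the latter also rose under the label WT. *Igfbp3*, a secreted binding protein of insulin-like growth factors, rose by 4.03 (SE 0.56, adjusted p = 1.58e-06) and 4.72 (SE 1.25, adjusted p = 0.0329), and *Crim1*, a membrane protein that binds bone morphogenetic proteins, by 1.12 (SE 0.18, adjusted p = 1.84e-05) and 1.498 (SE 0.43, adjusted p = 0.0479), on the log2 scale, by edgeR.

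TCDD changed few of the 9 genes at any 1 hour. Over 9 hours, 4 changes were called in 78 tests under the label WT and none in 79 under the label Pkm ΔDRE, where edgeR gave 8 unadjusted p-values under 0.05 and DESeq2 called 4 changes. *Ankrd1* was too low to be tested at 2 and 4 h under either label and at 8 h under the label WT, which accounts for the 5 missing tests.

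3 of the 4 changes were at 8 h under the label WT, an hour at which 37.4% of all genes tested were called. *Lats2* was 5.79, 6.25, 6.14 and 5.57 CPM with vehicle and 12.2, 16.2, 25.1 and 13.4 CPM with TCDD, a log2 fold change of 1.46 (SE 0.26, adjusted p = 0.00161). *Tead1* was 30.01, 25.2, 27.1 and 35.8 CPM with vehicle and 43.8, 64.1, 105.8 and 68.4 CPM with TCDD (1.22, SE 0.23, adjusted p = 0.00206). *Yap1* was 89.5, 80.9, 97.3 and 100.3 CPM with vehicle and 122.4, 133.1, 180.6 and 152.6 CPM with TCDD (0.65, SE 0.15, adjusted p = 0.00408). In all 3 genes every TCDD library was above every vehicle library, and the third TCDD library was the highest. *Yap1* lost its call when that library was left out (0.53, adjusted p = 0.00961, the fold then being under 1.5).

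*Ccn1* and *Ccn2* were not called at this hour. At 8 h *Ccn1* was 66.3, 86.4, 164.1 and 192.5 CPM with vehicle and 59.03, 78.6, 85.8 and 129.2 CPM with TCDD (log2 fold change -0.56, SE 0.31, adjusted p = 0.16), and *Ccn2* was 252.2, 254.2, 418.8 and 427.6 against 206.4, 228.8, 247.0 and 331.7 CPM (-0.45, SE 0.20, adjusted p = 0.089). Both pairs of groups overlapped. *Ccn1* was called lower without the vehicle 8 h replicate 1 (-0.77, adjusted p = 0.0477) and *Ccn2* without the TCDD 8 h replicate 4 (-0.60, adjusted p = 0.0373).

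At the same hour, with 37.4% of all genes called, 9 of the 20 other Hippo pathway genes tested rose and none fell. They included the kinases *Lats1* (1.47), *Stk3* (1.58), *Stk4* (1.37) and *Taok1* (1.62), the LATS activators *Mob1a* (1.88) and *Mob1b* (1.43) and the scaffold *Amot* (2.55), which were named after their values were seen. The median log2 fold change of the 20 was 0.53, against 0.00 over all genes. Of the other YAP signature genes, 4 of 12 rose and none fell.

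The share of uniquely mapped pairs that fell on no gene moved with these changes. It was 4.9–6.0% in the vehicle and 8.4–21.9% in the TCDD libraries at 8 h under the label WT, without overlap, and pairs left unmapped were 9.0–13.5% and 7.3–23.6%. Across all libraries, taken as differences from the mean of their group, *Tead1* rose with this share (Pearson r = 0.587, Spearman rho = 0.674, permutation p = 1e-05 for each, the smallest that 100000 permutations within groups can give, and 9e-05 after adjustment over the 9 genes). Without the 2 libraries farthest from the median of the share, r was 0.692. *Lats2* (r = 0.332, rho = 0.375, adjusted permutation p = 0.00445 and 0.00027) and *Ankrd1* (r = 0.336, rho = 0.33, adjusted permutation p = 0.0117 and 0.00105) moved the same way, with r = 0.417 and 0.382 without the 2 libraries. The other 6 genes had r between -0.039 and 0.174, with adjusted permutation p of 0.157 or more for r. By rank, *Yap1* had rho = 0.195 (permutation p = 0.0416, adjusted 0.0937). The rest had rho between -0.071 and 0.108, with adjusted permutation p of 0.471 or more. The TCDD 8 h group labelled WT ran the other way, its library of highest share (21.9%) having the lowest *Tead1* (43.8 CPM). With the share as a covariate, the log2 fold changes at 8 h were 1.79 for *Lats2*, 1.66 for *Tead1* and 0.83 for *Yap1*, and all 3 stayed called, but the groups do not overlap in the share, so the treatment and the share cannot be told apart at this hour. Markers of cell types moved at the same hour as well. The stellate cell and fibroblast markers were 14.3–18.2 CPM in sum with vehicle and 46.5–94.8 CPM with TCDD (1 of 2 tested called higher), the macrophage markers 141.9–193.4 and 61.1–115.7 CPM (5 of 7 lower) and the hepatocyte markers 74520–88518 and 65673–73060 CPM (3 of 8 lower and 1 higher), each without overlap. Endothelial and cholangiocyte markers overlapped and none was called. The part of these cell types was not tested.

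**Figure D4:**
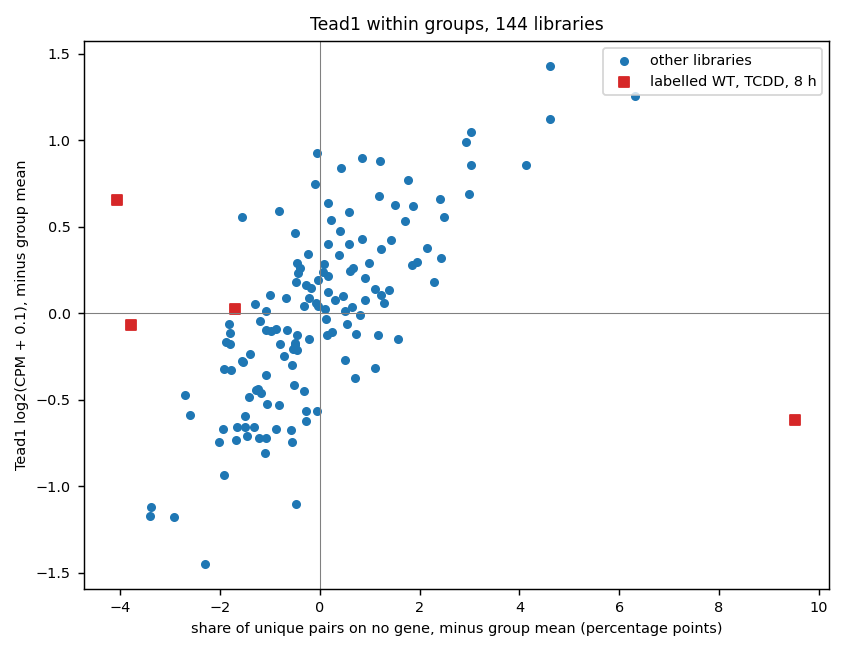
*Tead1* as log2(CPM + 0.1) minus its group mean (y axis) against the share of uniquely mapped pairs on no gene minus its group mean, in percentage points (x axis), for every library. Squares mark the TCDD 8 h group labelled WT, and r over all libraries was 0.587.

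The remaining change was a decrease of *Ccn2* at 96 h under the label WT, where 15.1% of all genes were called. *Ccn2* was 815.4, 889.2, 641.6 and 716.0 CPM with vehicle and 526.6, 471.5, 460.6 and 453.1 CPM with TCDD (log2 fold change -0.62, SE 0.12, adjusted p = 0.00272), and every TCDD library was below every vehicle library. It passed in 7 of 8 fits that left out 1 library. Without the vehicle 96 h replicate 2 the change was -0.53 (adjusted p = 0.00508), under the fold threshold, and in a single fit of the 72 libraries of the label the adjusted p was 0.225. At this hour *Amotl2* (-0.36, SE 0.08, adjusted p = 0.00595), *Wwtr1* (-0.30, SE 0.09, adjusted p = 0.0325) and *Yap1* (0.28, SE 0.08, adjusted p = 0.0162) passed the adjusted p with less than 1.5-fold change. *Ccn1* changed by -0.45 (SE 0.16, adjusted p = 0.0548) and was called without the TCDD 96 h replicate 1 (-0.63, adjusted p = 0.0049). Of the cell type markers, the endothelial sum was 75.3–83.7 CPM with vehicle and 46.02–65.9 CPM with TCDD, without overlap (3 of 7 tested called lower). The other sums overlapped, with cholangiocyte markers at 609.0–1331 and 372.0–781.4 CPM (2 of 5 lower), hepatocyte markers at 8257–15361 and 14389–16629 CPM (2 of 8 higher and 2 lower), stellate cell and fibroblast markers at 84.8–213.4 and 116.1–335.0 CPM (1 of 10 higher) and macrophage markers at 43.2–69.9 and 37.5–49.6 CPM (none of 8). Their part was not tested.

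At the other hours under the label WT edgeR called no gene of the 9, and the share of all genes called was 0% at 2, 4 and 72 h. It was 0.0321% (12 h), 0.373% (24 h) and 0.00763% (48 h), and 1.46% at the last harvest. For the label Pkm ΔDRE the share was 0% at 2 and 4 h. It was 0.106% (8 h), 0.024% (12 h) and 0.016% (24 h), then 0.404% (48 h) and 1.13% (72 h), and last 0.0793% (96 h) and 0.633% (120 h). At these hours a count of no members called is what the background would give.

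Single comparisons aside, the estimates for the 3 genes that are both targets and highly expressed were mostly below 0. *Ccn1* was lower with TCDD in 17 of 18 comparisons (median log2 fold change -0.38), *Ccn2* in 16 of 18 (-0.44) and *Amotl2* in 16 of 18 (-0.35). *Ankrd1* was lower in 9 of 13, *Axl* in 13 of 18, *Tead1* and *Wwtr1* in 10 of 18, *Lats2* in 9 of 18 and *Yap1* in 4 of 18. Of the 27 member tests with an unadjusted p under 0.05, 21 were decreases, 8 of them of *Amotl2*, 6 of *Ccn2* and 5 of *Ccn1*. Over all genes, such p-values were common at 8 h (6714 of 12392 tested) and 96 h (6109 of 13793) under the label WT. They were rare at 2 h (166 of 12097). The share of all genes with as many estimates of 1 sign was not taken, so the sign counts have no background beside them. All but 4 of the estimates behind these member counts were not called. In 2 of the comparisons, 4 and 96 h under the label Pkm ΔDRE, they include the discordant libraries. Without these, *Amotl2* at 4 h was -0.46 (SE 0.25) in place of -1.36 (SE 0.55), and at 96 h -0.15 (SE 0.16) in place of 0.23 (SE 0.46), while *Ccn2* at 96 h was -0.10 (SE 0.18) in place of 0.26 (SE 0.42).

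DESeq2 called 4 decreases that edgeR did not, *Amotl2* at 48 and 72 h and *Ccn1* and *Ccn2* at 72 h, all under the label Pkm ΔDRE. The shares of all genes called at these hours, 0.404% and 1.13%, are those of edgeR. None was taken for DESeq2, so its 4 calls have no background beside them. *Amotl2* was 202.4, 219.4, 259.0 and 225.8 CPM with vehicle at 48 h and 106.0, 160.2, 114.6 and 102.4 CPM with TCDD (log2 fold change -0.98, SE 0.20, adjusted p = 0.088). At 72 h it was 348.0, 304.9, 380.6 and 321.9 CPM with vehicle and 150.3, 205.0, 242.2 and 194.9 CPM with TCDD (-0.81, SE 0.20, adjusted p = 0.0836). At both hours every TCDD library was below every vehicle library. Sequenced pairs left unmapped were 4.6–6.9% with vehicle and 2.9–3.7% with TCDD at 48 h, without overlap. At 72 h they were 3.1–7.7 and 2.4–3.2% and overlapped. The part of this share in the decreases was not tested. By DESeq2 the adjusted p of *Amotl2* was 0.00288 and 0.00294, and at 72 h that of *Ccn1* 0.0104 (log2 fold change -0.61) and of *Ccn2* 0.0238 (-0.71). At 72 h edgeR also called *Amotl2* (-0.79, adjusted p = 0.02), *Ccn1* (-0.59, adjusted p = 0.0254) and *Ccn2* (-0.80, adjusted p = 0.0168) without the vehicle 72 h replicate 1. That library lay nearest to the 120 h profile (r = 0.974, against 0.931 for 72 h). At 72 h the cholangiocyte markers were 941.0–1052 CPM in sum with vehicle and 407.1–705.55 CPM with TCDD (1 of 5 called lower) and the stellate cell and fibroblast markers 34.1–102.8 and 144.02–204.75 CPM (1 of 9 called higher), both without overlap. At 48 h both sums overlapped, at 422.0–966.4 and 224.2–505.5 CPM (none of 4 called) and 31.98–65.8 and 48.2–60.1 CPM (1 of 9 called higher). The part of these cell types was not tested.

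**Figure D5:**
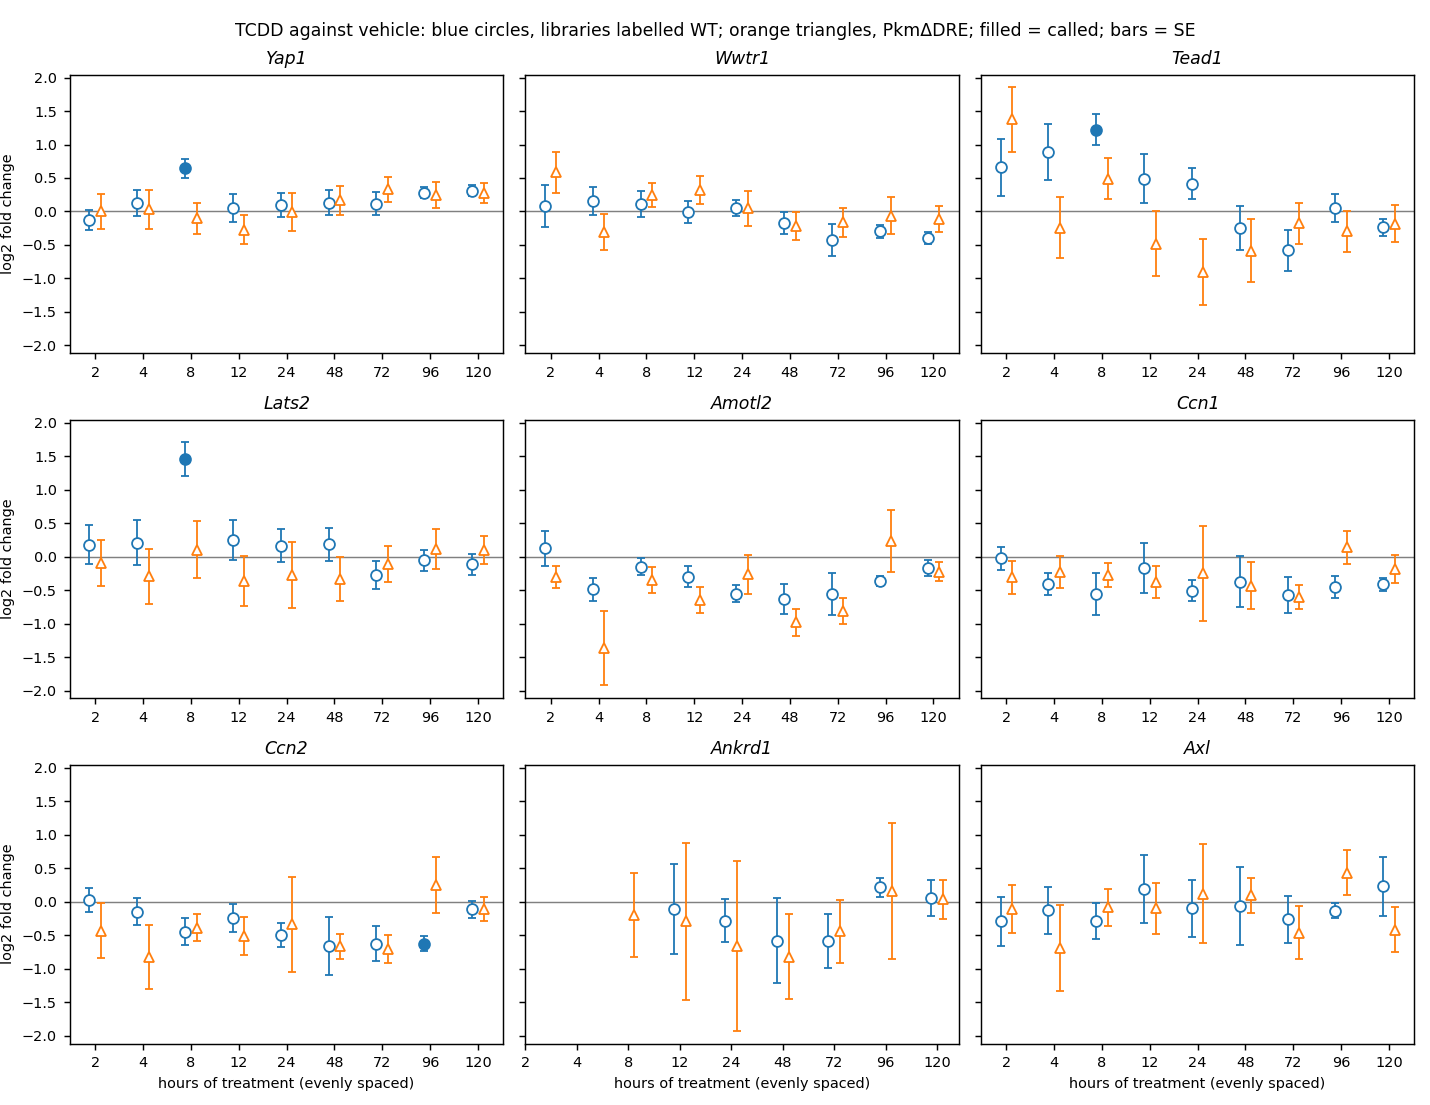
Log2 fold change of TCDD against vehicle with SE (y axis) for each gene by hour (x axis, evenly spaced), for libraries labelled WT (circles) and Pkm ΔDRE (triangles), filled where called. The 4 filled symbols are *Lats2*, *Tead1* and *Yap1* at 8 h and *Ccn2* at 96 h, all under the label WT.

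Among the other YAP signature genes, the decreases with TCDD were few and fell late. 3 were called under the label Pkm ΔDRE, of *Nuak2* at 48 h (-2.00, adjusted p = 0.00305) and 72 h (-2.33, adjusted p = 0.00778) and *Igfbp3* at 120 h (-1.06, adjusted p = 0.046). 4 were called under the label WT, of *Nuak2* at 96 h (-1.78, adjusted p = 0.00308) and 120 h (-1.79, adjusted p = 0.00945) and of *Igfbp3* (-1.03, adjusted p = 0.00742) and *Fjx1* (-0.87, adjusted p = 0.00816) at 96 h. *Nuak2* encodes a stress-responsive kinase that feeds back on YAP. Increases numbered 6 under the label WT and none under the label Pkm ΔDRE. The other Hippo pathway genes had 14 increases under the label WT in 186 tests, 9 at 8 h, 4 at 96 h and 1 at 120 h. Their 1 decrease under that label was of *Tead4* at 96 h (-0.89, adjusted p = 0.000742). There was no call in 187 tests under the label Pkm ΔDRE. *Nuak2*, *Fjx1*, *Igfbp3* and *Tead4* were named here after their values were seen.

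None of the 9 genes differed between the labels in its response to TCDD at any hour, by edgeR, with 3 unadjusted p-values under 0.05 in 79 tests and none called by DESeq2. The share of all genes called was 0% at 2, 4, 8, 12, 24, 96 and 120 h, 0.00715% at 48 h and 0.00695% at 72 h. At 8 h the response under the label Pkm ΔDRE was lower than under the label WT by 1.48 for *Lats2* (SE 0.52, adjusted p = 0.292), 0.85 for *Tead1* (SE 0.41, adjusted p = 0.316) and 0.87 for *Yap1* (SE 0.28, adjusted p = 0.292), on the log2 scale. The median of this difference over all genes tested at 8 h was -0.12. The increases at 8 h under the label WT are thus not shown to be particular to that label.

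In vehicle, *Ccn1* and *Ccn2* differed between the labels at 12 h, where 1.74% of all genes were called. *Ccn1* was 402.9, 490.0, 445.2 and 181.6 CPM under the label WT and 104.3, 119.1, 93.8 and 108.4 CPM under the label Pkm ΔDRE, lower in the latter with a log2 difference of -1.81 (SE 0.35, adjusted p = 0.017). *Ccn2* was 522.2, 673.1, 772.5 and 563.4 CPM under the label WT and 251.3, 333.8, 259.8 and 261.8 CPM under the label Pkm ΔDRE (-1.17, SE 0.26, adjusted p = 0.0296). Neither gene overlapped between the labels. Nor did 3 marker sums at this hour. Cholangiocyte markers were 30.3–94.2 CPM for WT and 16.2–29.8 CPM for Pkm ΔDRE as labelled (1 of 4 called lower), macrophage markers 109.75–214.7 and 87.2–109.4 CPM (1 of 8 called lower) and stellate cell and fibroblast markers 11.5–27.8 and 32.1–37.7 CPM (none of 4 called). Their part was not tested. The calls were kept in 12 and 10 of 16 fits that left out 1 library, with adjusted p of up to 0.0792 and 0.11, both without the vehicle 12 h replicate 3 labelled Pkm ΔDRE. In a single fit of all libraries *Ccn2* missed the threshold (adjusted p = 0.0748). At other hours no member was called, with 0.0075% of all genes called at 8 h and 0% at 2, 4, 24, 48, 72, 96 and 120 h.

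At 24 h both secreted targets split within the label Pkm ΔDRE. *Ccn1* was 108.97, 81.5, 470.8 and 592.6 CPM with vehicle and 158.9, 77.2, 439.6 and 480.3 CPM with TCDD. *Ccn2* was 136.4, 226.0, 810.0 and 1056 CPM with vehicle and 207.8, 156.3, 749.7 and 821.9 CPM with TCDD. In each group 2 libraries were low and 2 high for both genes. The vehicle 8 h libraries labelled WT, given above, also held 2 low and 2 high for both genes. Sequenced pairs left unmapped were 7.6 and 7.3% in the low and 2.8 and 3.8% in the high TCDD libraries at 24 h. They were 6.7, 6.6, 7.1 and 6.4% in the vehicle libraries, in the order given, without such a split. In the WT vehicle 8 h group they were 13.4 and 13.5% against 9.2 and 9.0%. What sets the low and high libraries apart is not given in the labels and was not tested.

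Over the 36 group means, the genes whose log2 level was most like that of *Ccn1* were *Hbegf* (r = 0.923), *Dusp10* (0.836) and *Junb* (0.813). *Hbegf* encodes an EGF receptor ligand, *Dusp10* a phosphatase of stress kinases and *Junb* a subunit of the AP-1 factor. Those most like *Axl* were *Dhrs3* (0.933), *Thbd* (0.933) and *Vasn* (0.923), which encode a retinal reductase, thrombomodulin and vasorin, an inhibitor of TGF-beta. For *Yap1*, whose hourly means spanned the smallest ratio among the members, they were *Tm9sf2* (0.873), *Atp6v1h* (0.852) and *Pde12* (0.852). These are the 3 highest Pearson correlations among 11494 genes, and the group means share libraries, hours and scaling.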

How the data were processed

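RNA-Seq counts were analysed for 36 groups of 4 libraries, formed by the genotype label, treatment and hour. The authors deposited raw gene counts for each library, made by STAR 2.7 after Trimmomatic 0.39 and FastQC 0.11.3 per the submitters' processing notes, which name the build GRCm39. The unstranded counts of whole read pairs were used, and between 13588848 and 30719161 pairs per library fell on genes. Pairs in lines that name no gene made up 16.8 to 48.0% and were kept out of library sizes and tests. Of the 55359 gene IDs, 52083 were paired with a symbol. Gene positions and exon lengths came from GENCODE M21 on GRCm38, so levels per kilobase rest on another build than the counts.

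Genes were tested with edgeR 4.0.16 in R 4.3.3 (quasi-likelihood test, TMM scaling, filterByExpr with a count minimum of 10 and a total of 15, Benjamini-Hochberg adjustment over all genes tested). A change was called at an adjusted p under 0.05 and at least 1.5-fold. TCDD was compared with vehicle in the 8 libraries of each hour and label, hours in the 36 vehicle libraries of a label, and labels in the 16 libraries of an hour. DESeq2 1.42.0 (Wald test), RLE scaling, no filter, a covariate for the share of pairs on no gene, other sets of libraries and leaving out each library were tried as alternatives. The shares of all genes called are those of the main edgeR fits and were not taken for the alternatives. Counts were simulated with 200 genes changed by 2 on the log2 scale. For TCDD against vehicle at 8 h under the label WT (12392 genes), edgeR recovered 85.8% of the changed genes tested, with 12 false calls. Recovery was 70.9% for 24 against 8 h in vehicle under that label (5 false calls). It was 62.8% for the difference in response at 8 h (7 false calls). Smaller changes were not simulated. The share of pairs on no gene was related to log2(CPM + 0.1) as deviations from group means, with 100000 two-sided permutations within groups. Hour profiles used log2(CPM + 1) of genes with a mean of at least 5 CPM.

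The members and lists were chosen with earlier results of these data known. All 9 members were named in every comparison. From the 21 other Hippo genes and 15 other YAP signature genes, the rule named at most 4 genes per list called with the same sign under both labels between 8 and 24 h or between 24 and 48 h, and the report says where others were named after their values were seen. For *Yap1*, *Ccn1* and *Axl* the 3 most similar genes were named. The labels give wells and cell numbers that differ between fields, so neither is stated.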

Additional observations from a re-analysis of the deposited data

Results flagged for a closer look

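Each of the 9 genes was examined in each of the 36 groups of 4 libraries, 324 sets of 4 values in all. In 22 of these sets 1 library stood apart from the other 3 by more of their range than Dixon's 95% limit allows, where chance gives about 1 in 20. 13 of the 22 were in vehicle libraries labelled Pkm ΔDRE. Replicate 2 of 48 h held 3 of these and replicate 4 of 4 h, which lay nearest to the 96 h profile, another 3.

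*Yap1* was 94.958 CPM in replicate 2 of WT TCDD 12 h, with the other 3 libraries between 139.8 and 146.9 CPM. In replicate 1 of Pkm ΔDRE vehicle 2 h *Yap1* stood at 76.7 CPM, with the others between 143.1 and 153.2 CPM. In replicate 2 of Pkm ΔDRE vehicle 48 h *Yap1* stood at 111.05 CPM, with the others between 83.1 and 87.4 CPM.

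*Wwtr1* was 117.9 CPM in replicate 3 of WT vehicle 72 h, with the other 3 libraries between 66.8 and 69.4 CPM. In replicate 4 of WT TCDD 2 h *Wwtr1* stood at 12.9 CPM, with the others between 32.7 and 36.4 CPM.

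*Tead1* was 162.1 CPM in replicate 2 of Pkm ΔDRE vehicle 48 h, with the other 3 libraries between 38.002 and 53.2 CPM.

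*Lats2* was 21.1 CPM in replicate 4 of Pkm ΔDRE vehicle 4 h, with the other 3 libraries between 7.71 and 8.45 CPM. In replicate 2 of Pkm ΔDRE TCDD 8 h *Lats2* stood at 18.4 CPM, with the others between 8.64 and 9.28 CPM.

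*Ccn1* was 277.7 CPM in replicate 1 of WT TCDD 96 h, with the other 3 libraries between 187.4 and 193.2 CPM.

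*Ccn2* was 529.8 CPM in replicate 1 of Pkm ΔDRE vehicle 8 h, with the other 3 libraries between 321.1 and 353.9 CPM. In replicate 2 of Pkm ΔDRE vehicle 12 h *Ccn2* stood at 333.8 CPM, with the others between 251.3 and 261.8 CPM. In replicate 2 of Pkm ΔDRE vehicle 48 h *Ccn2* stood at 667.2 CPM, with the others between 761.5 and 764.9 CPM.

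*Ankrd1* was 0.582 CPM in replicate 3 of WT vehicle 4 h, with the other 3 libraries at 0. In replicate 4 of Pkm ΔDRE vehicle 4 h *Ankrd1* stood at 25.3 CPM, with the others between 0.0627 and 0.656 CPM. In replicate 4 of Pkm ΔDRE vehicle 8 h *Ankrd1* stood at 0.127 CPM, with the others between 1.15 and 1.2 CPM. In replicate 3 of Pkm ΔDRE vehicle 24 h *Ankrd1* stood at 24.7 CPM, with the others between 0 and 4.06 CPM. In replicate 1 of Pkm ΔDRE vehicle 72 h *Ankrd1* stood at 87.3 CPM, with the others between 18.3 and 22.4 CPM. In replicate 2 of Pkm ΔDRE TCDD 4 h *Ankrd1* stood at 0.727 CPM, with the others at 0.

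*Amotl2* was 81.4 CPM in replicate 3 of WT vehicle 2 h, with the other 3 libraries between 54.5 and 56.4 CPM. In replicate 4 of Pkm ΔDRE vehicle 4 h *Amotl2* stood at 372.4 CPM, with the others between 68.3 and 79.2 CPM. In replicate 4 of Pkm ΔDRE vehicle 120 h *Amotl2* stood at 379.4 CPM, with the others between 323.2 and 330.1 CPM.

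*Axl* was 4.67 CPM in replicate 2 of Pkm ΔDRE TCDD 12 h, with the other 3 libraries between 2.72 and 2.83 CPM.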

How the results depend on the processing

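No count reversed direction, and no estimate for a member changed sign where it was called. Of the re-estimated log2 fold changes, 8827 stayed on the same side of the threshold, 55 gained a call and 42 lost one. Under the label WT, 4 changes with TCDD became 2 in a single fit of the 72 libraries of the label and 7 with no fold threshold, and 3 to 5 when 1 library was left out. Under the label Pkm ΔDRE, 0 became 4 with DESeq2, 2 with no filter on low counts, 1 when pairs outside genes entered as a covariate, and 2 in the fit of 72 libraries, which holds the discordant library of 4 h, and 0 to 3 when 1 library was left out. Over time in culture, 12 changes under the label WT became 9 to 13 when 1 library was left out, 15 with DESeq2, 14 with RLE scaling and 9 with no filter. With the covariate the count stayed at 12, but *Lats2* from 48 to 120 h was lost and *Wwtr1* in the same step gained. Under the label Pkm ΔDRE, 2 became 1 with no filter, 4 with only the 2 hours compared, 6 without the 2 discordant libraries and 0 to 4 when 1 library was left out. The 2 differences between the labels in vehicle became 0 to 2 when 1 library was left out, and 3 with no filter (adding *Ccn1* at 8 h), 3 with the covariate (*Ankrd1* at 12 h) and 3 in the fit of all libraries, which lost *Ccn2* at 12 h and added *Amotl2* and *Ankrd1* at 4 h, an hour with a discordant library. Differences in response were 0 in every alternative. Leaving out the discordant libraries was chosen after seeing the data. The cause of these shifts was not tested. No paired analysis was possible because the labels give no replicate numbers, and those used here follow the order of the samples. Depth limits *Ankrd1*, which did not pass the filter on low counts for the TCDD comparisons at 2 and 4 h under either label.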
